A study of Homo sapiens with 96 samples.

Results

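A set of 9 genes that glucocorticoids are known to induce was followed through a circadian day of U2-OS cells, a human osteosarcoma line, either wild-type or depleted of the clock factor Bmal1 by siRNA. The 9 were FKBP5, TSC22D3, DUSP1, ERRFI1, ZBTB16, KLF9, SGK1, PDK4 and CRISPLD2, chosen by name from the 19438 genes of each table. All 9 passed the filter on low counts in total RNA and in ribosome footprints, the mRNA fragments held inside translating ribosomes. Both treatments received dexamethasone, a synthetic glucocorticoid, at 0.1 µM to set their clocks, in cells that express luciferase from a Per2 promoter. Collection began 24.5 h after dexamethasone and went on every 2 h for 12 times, named by circadian time from CT00 to CT22, with cycloheximide at 100 µg/mL holding ribosomes in place. Knockdown plates were seeded with 560000 cells and transfected with 120 pmol of siRNA, a pool of 5 sequences against Bmal1. Wild-type plates were seeded more densely and had no siRNA. No control siRNA is among the samples, so a knockdown effect here includes transfection and seeding density. No sample was without dexamethasone, so induction itself cannot be measured. Each treatment, assay and time had 2 replicates, which gives 24 libraries per treatment and assay. The labels do not state that replicates were separate cultures, so a p-value here speaks only of the spread among the samples, part of which may be technical.

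Glucocorticoids bind the glucocorticoid receptor, which waits in the cytoplasm in a complex with HSP90 and its partner chaperones, moves to the nucleus and binds DNA at paired half-sites called glucocorticoid response elements. Many genes that such sites control are induced, among them brakes on inflammation and growth signalling. Inflammatory genes driven by NF-kB and AP-1 are repressed. FKBP5, one of the most strongly induced genes, encodes a co-chaperone that lowers the receptor's affinity for hormone and so closes a feedback loop. BMAL1 pairs with CLOCK and activates genes through E-boxes, another DNA motif, and dexamethasone is a standard way to set the clocks of cultured cells to a common phase.

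The promoters show which of these motifs lie next to the members' transcription starts. RefSeq (GRCh38.p14) gave 14 promoter entries for 8 of the 9 members, each from 250 bases before to 50 bases after a start. Both strands of these bases were searched, and sites farther from a start were not looked for. The full response element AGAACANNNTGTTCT was in none of the 14 and in 0.00285% of all 35116 promoters, and its relaxed form GNACANNNTGTNC was in none of the 14 and in 0.39% of all. The half-site AGAACA, which is part of the full element, was in 3 of the 14 entries, from 3 members, and in 14.8% of all promoters. In FKBP5 (another entry than the one shown) and SGK1 it lay at or just after the start, and in PDK4 before it. The E-box CACGTG was in 2 of the 14 entries, from FKBP5 and DUSP1, and in 7.26% of all. The cyclic AMP element TGACGTCA was in 1 of the 14, the DUSP1 promoter, and in 1.85% of all. The 250 bases before the start of 3 members are shown because they hold the matches before the start, in capitals: the half-site of the receptor, the E-box to which BMAL1 binds, and the cyclic AMP element. They are the minus strand of chr5:172771196-172771445 for DUSP1, chr6:35688916-35689165 for FKBP5 and chr7:95596517-95596766 for PDK4, read 5′ to 3′.
DUSP1: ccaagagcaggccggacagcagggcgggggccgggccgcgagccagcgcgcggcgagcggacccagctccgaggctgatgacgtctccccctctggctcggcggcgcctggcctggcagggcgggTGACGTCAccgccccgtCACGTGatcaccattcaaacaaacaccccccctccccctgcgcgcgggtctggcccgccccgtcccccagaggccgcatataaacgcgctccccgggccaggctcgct
FKBP5: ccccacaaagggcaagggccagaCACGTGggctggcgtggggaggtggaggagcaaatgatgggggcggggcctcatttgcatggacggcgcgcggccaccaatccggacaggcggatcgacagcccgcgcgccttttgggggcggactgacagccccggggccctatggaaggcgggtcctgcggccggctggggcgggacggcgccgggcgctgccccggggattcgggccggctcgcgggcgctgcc
PDK4: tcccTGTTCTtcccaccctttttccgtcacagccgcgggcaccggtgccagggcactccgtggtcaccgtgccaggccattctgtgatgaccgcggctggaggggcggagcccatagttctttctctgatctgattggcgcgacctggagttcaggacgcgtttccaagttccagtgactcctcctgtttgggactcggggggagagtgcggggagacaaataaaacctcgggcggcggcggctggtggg
In DUSP1 the cyclic AMP element begins 125 bases and the E-box 108 bases before the start. In FKBP5 the E-box begins 227 bases before the start of the entry shown, and in PDK4 the half-site, on the opposite strand, begins 246 bases before it. A match is only a description of these letters and says nothing of binding.

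Total RNA libraries held 13.6 to 20.1 M reads (M, 1e+06) in 46 of 48 cases and 2.66 and 2.56 M in 2 knockdown libraries, replicate 2 of CT14 and of CT18. Footprint libraries, 48 in number, ranged from 2.50 to 5.82 M. ARNTL, the gene for BMAL1, stood at 14.9% of wild-type in knockdown total RNA and at 3.52% in footprints, with all 24 knockdown libraries under every wild-type library in both assays. Of the markers fixed for this cell line, VIM, SPARC, COL1A1 and RUNX2 were present in all libraries, with wild-type medians in total RNA from 15.3 counts per M reads (CPM) for RUNX2 to 1968 CPM for VIM, while COL1A2 had a median of 0.0901 CPM in total RNA and 5.42 CPM in footprints. Of markers of other cells, ALB had a wild-type median of 0 CPM, PTPRC 0.286, KRT14 1.16, CDH1 1.65, CD68 2.09 and EPCAM 3.86 CPM. Knockdown medians were 12.8 CPM for CD68, a lysosomal protein, 3.83 CPM for CDH1 and 1.97 CPM for EPCAM, and their part in any result was not tested. Some knockdown samples stood apart. The 2 shallow total RNA libraries had 199 (CT14) and 247 (CT18) of 12019 genes more than 2 times above the knockdown median, and the CT18 library held the highest knockdown value of FKBP5, ZBTB16, KLF9, DUSP1 and CRISPLD2, while the CT14 library held the lowest of SGK1. Without these 2 libraries 45 of 45 member results kept their call. Replicate 1 at CT08 had 25 such genes in total RNA, and its SGK1 and ERRFI1 were the highest of 24 knockdown libraries in both assays.

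The knockdown changed the level of all 9 members in total RNA. FKBP5, ZBTB16, PDK4, CRISPLD2, KLF9, TSC22D3 and DUSP1 fell, and SGK1 and ERRFI1 rose (limma-trend with Benjamini-Hochberg adjustment, 7 lower and 2 higher of 9 tested). This stands against a wide background, since 80.5% of the 14033 genes tested passed the same threshold, 41.2% higher and 39.3% lower. The members' median log2 difference, knockdown minus wild-type, was -0.66, against 0.01 over all genes tested. In bulk RNA of a cell line, fewer expressing cells and less RNA per cell cannot be told apart. Without the CT08 sample, the counts were again 7 lower and 2 higher. The knockdown test counts each of the 24 libraries per treatment separately. Within a wild-type series, however, departures from the replicate mean were correlated between times (r from 0.438 to 0.780). The p-values given for single members may therefore be too small. Reduced to series means, 2 against 2, the limma test passed all 9 members again, but 8055 genes in place of 11290.

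**Figure D1:**
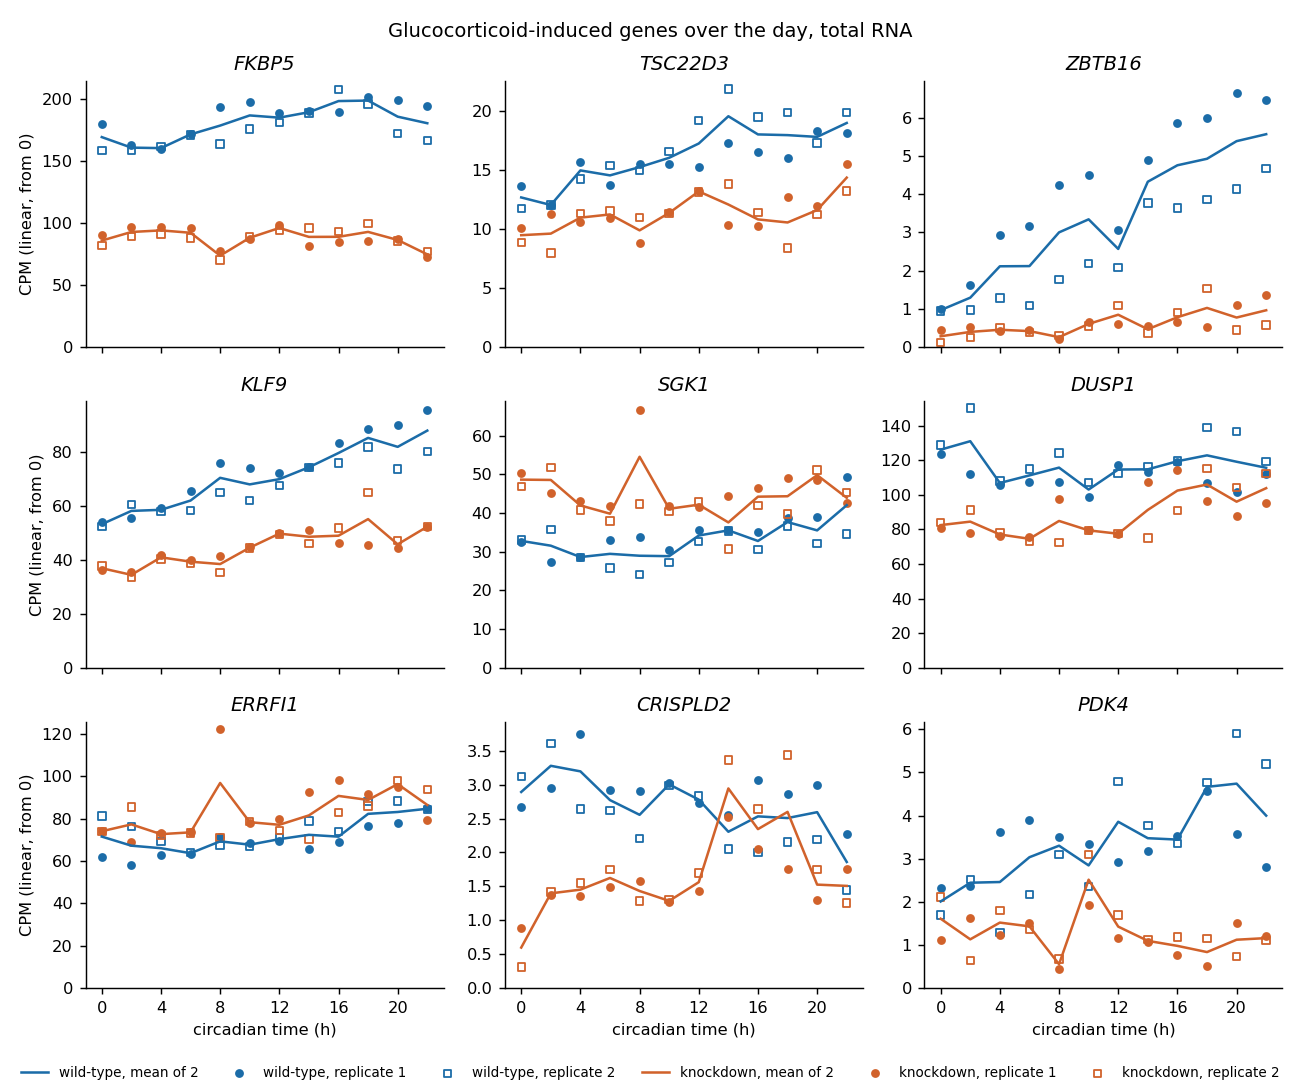
CPM in total RNA of each of the 9 genes (y axis, linear, from 0) against circadian time in hours (x axis), for wild-type (blue) and knockdown (orange) cells, with replicate 1 as filled circles, replicate 2 as open squares and the mean of 2 as a line. The FKBP5 values of the treatments do not overlap, ZBTB16 and KLF9 climb through the day in both, and the knockdown replicate 1 at CT08 stands out in SGK1 and ERRFI1.

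FKBP5, the receptor's co-chaperone, had the cleanest separation. Its total RNA ran from 159 CPM through a median of 181 to 208 CPM in the 24 wild-type libraries and from 70.5 through 88.6 to 100 CPM in the 24 knockdown libraries. The ranges did not overlap, and knockdown was lower at 12 of 12 times. The mean was 181 ± 15.6 CPM (SD, n = 24) in wild-type and 88.0 ± 8.08 CPM (SD, n = 24) in knockdown, or 48.7% of wild-type. On the log2(CPM + 0.25) scale the difference was -1.04 ± 0.03 (SE; limma adjusted p = 2.88e-26). By time it ranged from -1.27 at CT08 to -0.77 at CT04. Separation was not particular to FKBP5. Of the cell markers, VIM, CDH1 and CD68 also had total RNA ranges without overlap, while those of the other markers overlapped. How many of all genes had no overlap was not counted, here or for the genes below.

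TSC22D3 encodes GILZ, a leucine zipper protein that carries much of the anti-inflammatory action of glucocorticoids. Its total RNA ran from 11.7 through a median of 15.9 to 21.85 CPM in wild-type and from 7.99 through 11.3 to 15.5 CPM in knockdown. The ranges overlapped, with 17 of 24 knockdown libraries under every wild-type library. The log2 difference was -0.52 ± 0.05 (SE; limma adjusted p = 1.78e-11), negative at 12 of 12 times. DUSP1, a phosphatase that switches off MAP kinases, ran from 99.0 through 114 to 150.2 CPM in wild-type and from 72.3 through 82.5 to 115 CPM in knockdown. The ranges overlapped through 5 knockdown libraries between CT14 and CT22, and 19 of 24 knockdown libraries were under every wild-type library. Its log2 difference was -0.41 ± 0.05 (SE; limma adjusted p = 2.29e-09), from -0.62 at CT02 to -0.16 at CT22.

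ERRFI1, which encodes MIG6, an inhibitor of the EGF receptor, was slightly higher in knockdown. Its total RNA ran from 58.2 through a median of 70.3 to 88.2 CPM in wild-type and from 69.1 through 78.9 to 122 CPM in knockdown. The ranges overlapped broadly, with 7 of 24 knockdown libraries above every wild-type library. The highest value, 122 CPM, was the knockdown replicate 1 at CT08, whose replicate 2 had 71.2 CPM. The log2 difference was 0.19 ± 0.05 (SE; limma adjusted p = 0.000747), and 0.15 without that sample (adjusted p = 0.000499). It did not pass without wild-type replicate 1 (0.11, limma adjusted p = 0.143).

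The 2 transcription factors among the members fell. ZBTB16, also called PLZF, is a zinc finger repressor. Its total RNA ran from 0.950 through a median of 3.40 to 6.63 CPM in wild-type and from 0.124 through 0.530 to 1.53 CPM in knockdown. The overlap came from early wild-type libraries and late knockdown libraries, and at each of 12 times the knockdown mean was lower. Knockdown stood at 18.03% of wild-type, a log2 difference of -1.97 ± 0.14 (SE; limma adjusted p = 2.19e-14). These are low levels, with a median of 58.5 reads per library in wild-type and 8 in knockdown. KLF9, a Krüppel-like factor and itself a target of the clock and of the receptor, ran from 52.4 through 73.1 to 95.7 CPM in wild-type and from 33.5 through 44.6 to 64.9 CPM in knockdown. Of 24 knockdown libraries 22 were under every wild-type library. Its log2 difference was -0.66 ± 0.03 (SE; limma adjusted p = 3.79e-18), from -0.87 at CT08 to -0.49 at CT12.

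The 2 kinases went opposite ways. SGK1, a serine kinase that regulates sodium transport and cell survival, rose from a wild-type range of 24.0 to 49.4 CPM (median 33.1) to a knockdown range of 30.7 to 66.7 CPM (median 43.0). The ranges overlapped, and only 4 of 24 knockdown libraries were above every wild-type library, although the knockdown mean was higher at 12 of 12 times. The log2 difference was 0.43 ± 0.05 (SE; limma adjusted p = 1.14e-08). The top value was again replicate 1 at CT08, against 42.35 CPM in replicate 2, and without that sample the difference was 0.40. PDK4, which shuts down pyruvate dehydrogenase and so spares glucose, fell from a range of 1.29 to 5.90 CPM (median 3.34) to one of 0.430 to 3.09 CPM (median 1.17). Of 24 knockdown libraries 15 were under every wild-type library. The log2 difference was -1.26 ± 0.12 (SE; limma adjusted p = 1.37e-11), from -2.24 at CT18 to -0.18 at CT10. These are low levels, with a median of 55 reads per library in wild-type and 21 in knockdown. The 2 shallow knockdown libraries, at CT14 and CT18, held 3 reads of PDK4 each.

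CRISPLD2, a secreted protein that binds bacterial endotoxin, was low in both treatments. It ran from 1.45 through a median of 2.78 to 3.75 CPM in wild-type and from 0.310 through 1.52 to 3.44 CPM in knockdown. The ranges overlapped widely, and its knockdown mean CPM was above wild-type at CT14 and CT18. At both times replicate 2 was 1 of the shallow libraries, with 9 reads of CRISPLD2 in each. The log2 difference averaged over the day was -0.67 ± 0.08 (SE; limma adjusted p = 9.32e-09).

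Ribosome footprints gave the same 7 lower and 2 higher members, against 74.3% of 11995 genes tested, 36.6% higher and 37.8% lower. FKBP5 footprints ran from 166 through a median of 222 to 278 CPM in wild-type and from 78.8 through 105 to 125 CPM in knockdown. All 24 knockdown libraries were under every wild-type library, as in total RNA. The log2 difference in footprints was -1.04 ± 0.05 (SE; limma adjusted p = 2.33e-20). ZBTB16 footprints ran from 0.331 through 3.36 to 8.49 CPM in wild-type and from 0 through 0.544 to 2.31 CPM in knockdown, where the median library held 2 reads, under the 3 reads taken as the floor. ZBTB16 and PDK4 would not have passed the filter on the knockdown footprint libraries alone, so they entered through the treatment in which they are higher. The log2 differences in footprints were -1.78 ± 0.24 for ZBTB16 and -1.31 ± 0.17 for PDK4. For the others they were -0.70 ± 0.11 for TSC22D3, -0.68 ± 0.16 for CRISPLD2, -0.61 ± 0.05 for KLF9, -0.38 ± 0.05 for DUSP1, 0.45 ± 0.07 for SGK1 and 0.18 ± 0.05 for ERRFI1 (SE; limma adjusted p at most 0.00198). ERRFI1 again did not pass without wild-type replicate 1 (0.10, limma adjusted p = 0.106), nor over series means with 2 against 2 (limma adjusted p = 0.0645).

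**Figure D2:**
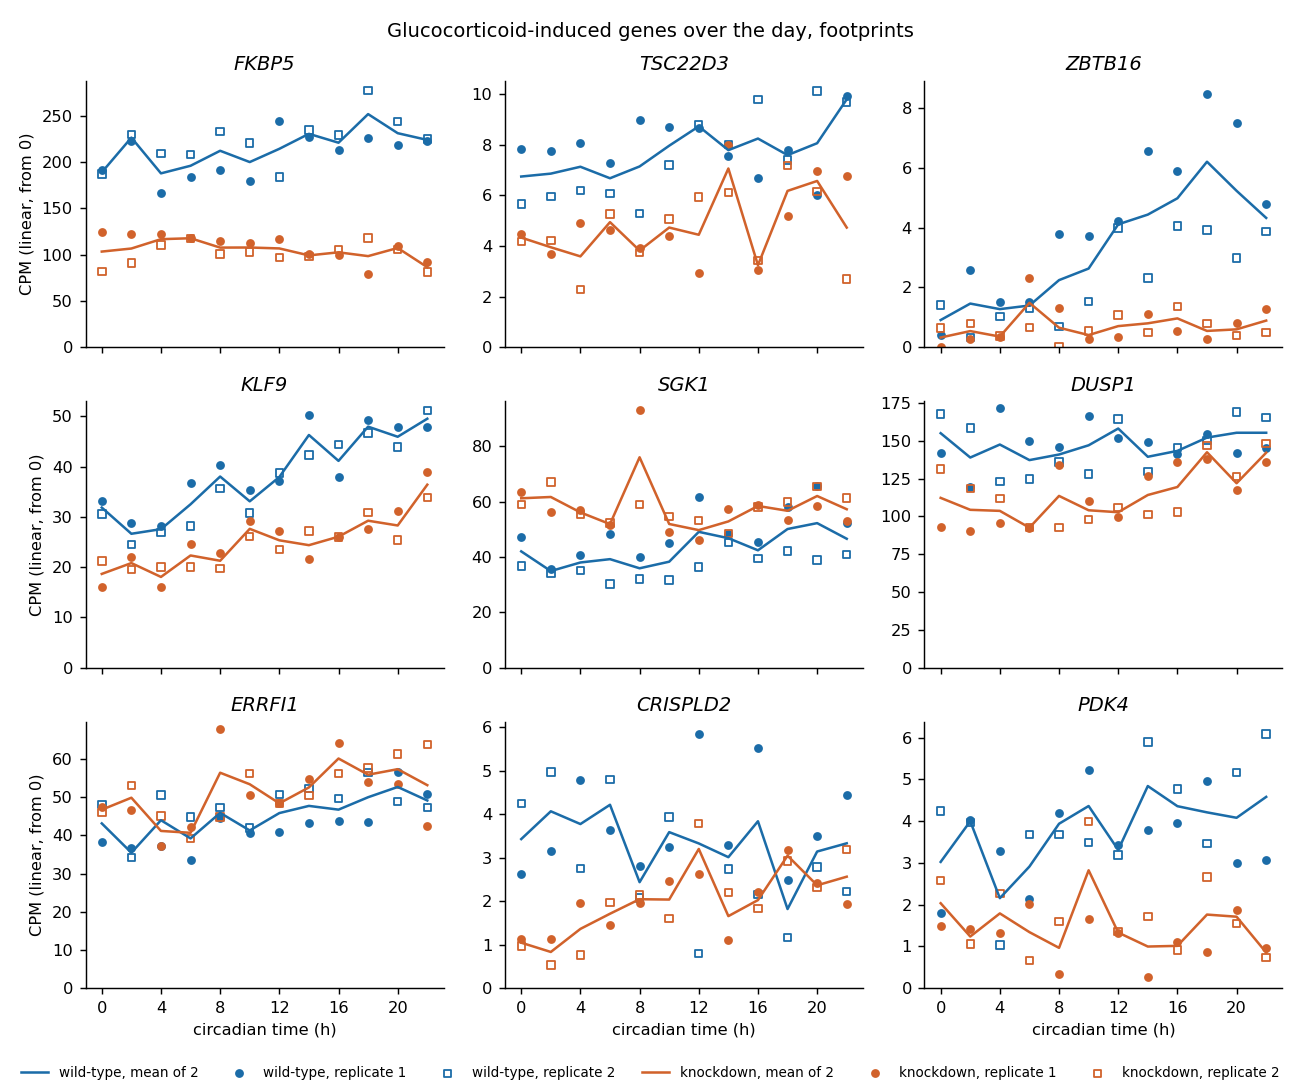
CPM in ribosome footprints of the 9 genes (y axis, linear, from 0) against circadian time in hours (x axis), drawn as for total RNA. Footprints repeat the order of the treatments seen in total RNA, with more scatter in the low genes ZBTB16, CRISPLD2 and PDK4.

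Translational efficiency, the log2 ratio of footprints to total RNA, was tested for a difference between treatments in 1 model of all 96 libraries. No member passed (0 of 9 by limma, 0 at an unadjusted p under 0.05 and 0 by edgeR's quasi-likelihood test), where 29.5% of 11947 genes did. That share depends on counting libraries separately. Reduced to series means, 2 against 2, the limma test called 393 genes in efficiency in place of 3530. The narrowest interval was that of FKBP5, whose efficiency differed by -0.0006 with a 95% interval from -0.11 to 0.11. For KLF9 the difference was 0.05, from -0.07 to 0.16, and for DUSP1 it was 0.03, from -0.11 to 0.17. The widest interval was that of ZBTB16, 0.19, from -0.36 to 0.75. With the scaling of the deposited values in place of TMM, KLF9 alone passed (0.15, limma adjusted p = 0.0391). With it the median gene's difference went from -0.01 to 0.09, and the share of higher calls in efficiency from 41.9% to 79.8%.

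**Figure D3:**
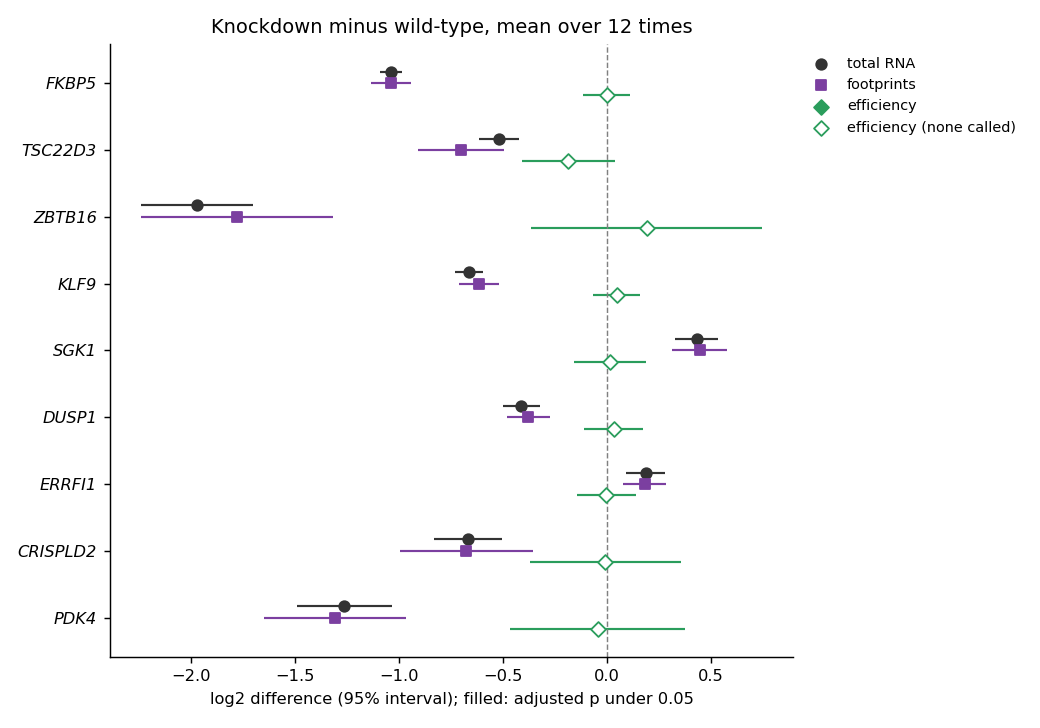
Log2 difference, knockdown minus wild-type, averaged over 12 times (x axis, with 95% intervals) for each gene (y axis) in total RNA (circles), footprints (squares) and efficiency (diamonds). Filled marks passed an adjusted p of 0.05, and the efficiency intervals of all 9 genes cross 0.

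The ratio itself did differ between the genes. It is not corrected for the length of an mRNA or of its translated part, so genes can differ in it without differing in translation. In wild-type cells the log2 ratio was lowest for TSC22D3, -1.05 ± 0.25 (SD, n = 24), at percentile 19.4 of 11947 genes. KLF9 followed at -0.90 ± 0.17 (percentile 23.2) and ERRFI1 at -0.69 ± 0.16 (percentile 29.0). SGK1 at 0.36 ± 0.21, DUSP1 at 0.34 ± 0.19 and FKBP5 at 0.25 ± 0.19 lay above the median gene, which was at -0.10. Within the low and within the high genes the ranges over libraries overlapped. These 3 low genes did not overlap these 3 high ones, with -0.45 the highest low value and -0.14 the lowest high value. The low-count members CRISPLD2 (mean 0.20), PDK4 (0.17) and ZBTB16 (-0.16) reached into both groups. Their ranges were -1.56 to 1.04, -0.80 to 1.21 and -1.10 to 0.87. The order was similar in knockdown, with TSC22D3 at -1.24 ± 0.49 and SGK1 at 0.37 ± 0.12. The ratio was not tested between genes.

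The design followed the cells from 24.5 h after dexamethasone onward. The change from CT00 to CT22 shows how the members moved as time since dexamethasone was added grew. Circadian time and time in culture grew with it, as did time since transfection in knockdown, and these cannot be told apart. In wild-type total RNA, 7 of 9 members rose along a fitted line and none fell, where 17.2% of all genes tested rose and 21.4% fell (limma-trend, adjusted p under 0.05). In knockdown total RNA 6 of 9 rose and none fell, against 17% and 18.5% of all genes. The members' median slope was 0.38 in wild-type and 0.35 in knockdown (log2 per 22 h), against -0.02 and 0.01 over all genes. In footprints 5 of 9 rose in wild-type and 4 of 9 in knockdown, and none fell, against 13.8% rising and 12.9% falling in wild-type and 9.5% and 11.7% in knockdown. The wild-type counts were 4 in total RNA and 2 in footprints without wild-type replicate 1. FKBP5 in knockdown cells did fall without knockdown replicate 2 (-0.26 in total RNA, limma adjusted p = 0.0397, and -0.48 in footprints, adjusted p = 0.0038). Treating the libraries as independent, these fits take no account of deviations that wild-type total RNA libraries of the same replicate number share. Wild-type footprint libraries shared such deviations more weakly (median r 0.287, from -0.115 to 0.549), so their p-values may be too small as well.

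ZBTB16 had the steepest rise. In wild-type total RNA replicate 1 went from 0.985 CPM at CT00 to 6.47 CPM at CT22, and replicate 2 from 0.950 to 4.67 CPM. The mean of the last 4 times was 2.87 times that of the first 4 in replicate 1 and 3.805 times in replicate 2. Both series therefore climbed, replicate 1 at a higher level throughout. The fitted slope was 2.20 ± 0.27 (log2 per 22 h, SE; limma adjusted p = 5.31e-09). In knockdown, ZBTB16 total RNA rose from 0.442 to 1.35 CPM in replicate 1 and from 0.124 to 0.576 CPM in replicate 2, with a slope of 1.10 ± 0.27 (limma adjusted p = 0.00118). The wild-type slope in footprints was 2.59 ± 0.48 (limma adjusted p = 2.31e-05), and the knockdown slope in footprints, 0.65 ± 0.48, did not pass (adjusted p = 0.376).

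KLF9 rose in both treatments and both assays. Its wild-type total RNA went from 54.1 to 95.7 CPM in replicate 1 and from 52.4 to 80.3 CPM in replicate 2, and its knockdown total RNA from 36.1 to 52.2 CPM and from 37.7 to 52.4 CPM. The lowest library of each of these 4 series was at CT00 or CT02, and the highest at CT18 or CT22. The slopes in total RNA were 0.70 ± 0.08 in wild-type (limma adjusted p = 1.59e-10) and 0.57 ± 0.08 in knockdown (adjusted p = 2.54e-08). In footprints they were 0.86 ± 0.11 and 0.81 ± 0.11. The slopes did not differ between treatments beyond error, with a difference of -0.13 in total RNA (95% interval -0.34 to 0.08).

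TSC22D3 rose in total RNA, by 0.61 ± 0.11 in wild-type (limma adjusted p = 1.32e-05) and 0.35 ± 0.11 in knockdown (adjusted p = 0.00906). Its footprints, with a median of 32.5 reads per wild-type library and 16 per knockdown library, gave slopes of 0.40 ± 0.23 and 0.44 ± 0.23 that did not pass. The wild-type footprint series of this gene went different ways, with a slope of -0.05 in replicate 1 and 0.85 in replicate 2. In knockdown total RNA the rise did not pass without replicate 1 (0.33, limma adjusted p = 0.121) or as late minus early times (0.18, adjusted p = 0.0966). ERRFI1 rose by a similar amount in all 4 cases, 0.34 ± 0.10 and 0.31 ± 0.10 in wild-type and knockdown total RNA and 0.39 ± 0.12 and 0.35 ± 0.12 in footprints. Its wild-type rise did not pass without wild-type replicate 1 (0.26 in total RNA, limma adjusted p = 0.217, and 0.26 in footprints, adjusted p = 0.296). Its knockdown rise did not pass without knockdown replicate 2 (0.31 in total RNA, limma adjusted p = 0.131, and 0.23 in footprints, adjusted p = 0.425).

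**Figure D4:**
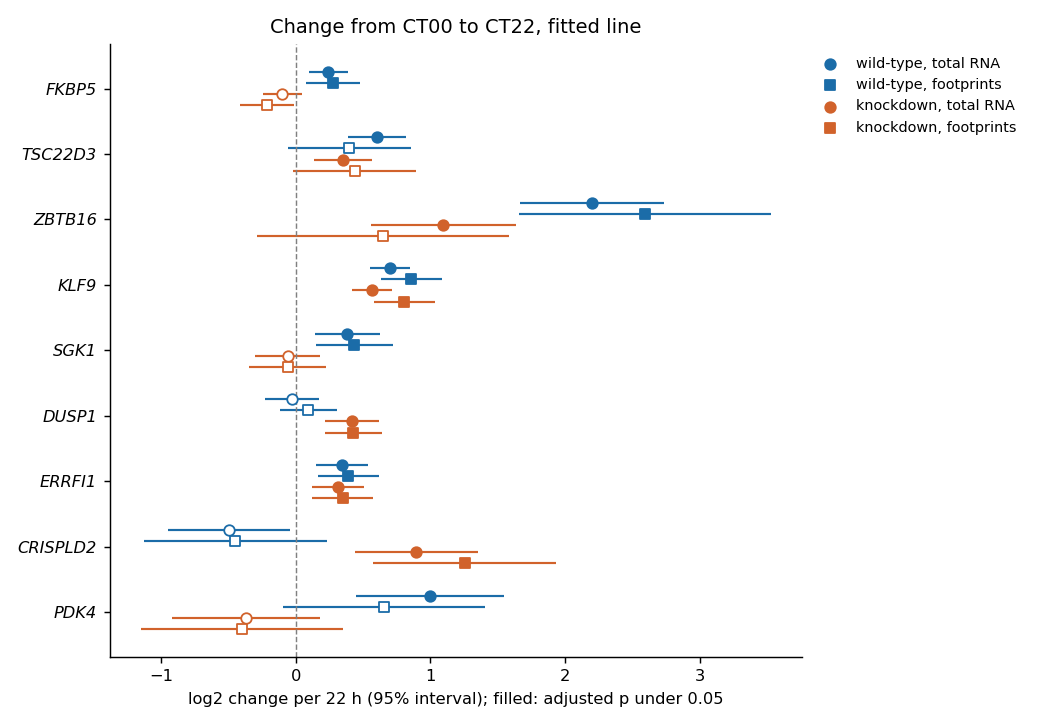
Change along a fitted line from CT00 to CT22 (x axis, log2 per 22 h with 95% intervals) for each gene (y axis) in wild-type (blue) and knockdown (orange) cells, in total RNA (circles) and footprints (squares). Filled marks passed an adjusted p of 0.05 and all lie to the right of 0, with ZBTB16 in wild-type cells the farthest.

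In 5 members the change through the day differed between treatments in total RNA, where the difference of slopes passed for 19.8% of all genes. The count was 2 without knockdown replicate 1, 2 without CT00, and 3 without any 1 of the other series. The 3 without wild-type replicate 2 were FKBP5, DUSP1 and SGK1, and SGK1 was not among the 5. FKBP5 rose by 0.24 ± 0.07 in wild-type (limma adjusted p = 0.00742) and had a slope of -0.10 ± 0.07 in knockdown (adjusted p = 0.306), a difference of -0.34 ± 0.10 (adjusted p = 0.0156). In wild-type cells its mean over the last 4 times was 1.16 and 1.14 times that of the first 4 in replicates 1 and 2, against 0.869 and 1.02 times in knockdown. The wild-type rise of FKBP5 did not pass in 1 series alone (limma adjusted p = 0.130 without wild-type replicate 1 and 0.0633 without wild-type replicate 2). The difference for FKBP5 did not pass without knockdown replicate 1 (-0.19, limma adjusted p = 0.326) or without wild-type replicate 1 (-0.34, adjusted p = 0.0883). ZBTB16 rose less in knockdown, by -1.10 ± 0.39 (adjusted p = 0.0358), but this did not pass with edgeR (-0.75, adjusted p = 0.374), without the filter on low counts (adjusted p = 0.0516), without CT00 or without wild-type replicate 2, knockdown replicate 1 or knockdown replicate 2 (limma adjusted p from 0.0632 to 0.193).

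In total RNA, PDK4 and CRISPLD2 had the largest differences of slope among the members, in opposite directions. PDK4 rose by 1.00 ± 0.28 in wild-type total RNA (limma adjusted p = 0.00384) and had a slope of -0.37 ± 0.28 in knockdown (adjusted p = 0.324), with a difference of -1.37 ± 0.40 (adjusted p = 0.0110). The wild-type rise came mostly from replicate 2, which went from 1.70 to 5.20 CPM with a slope of 1.66, whereas replicate 1 went from 2.32 to 2.80 CPM with a slope of 0.33. Without wild-type replicate 2, neither the rise (0.33, limma adjusted p = 0.596) nor the difference (-0.71, adjusted p = 0.357) passed, nor did the difference without CT00 (adjusted p = 0.0657). CRISPLD2 rose by 0.90 ± 0.23 in knockdown total RNA (limma adjusted p = 0.00166). Its wild-type slope was -0.50 ± 0.23 (adjusted p = 0.0845), which passed with edgeR (-0.51, adjusted p = 0.0372) and without CT00. The difference for CRISPLD2 was 1.39 ± 0.33 (limma adjusted p = 0.00154), and 1.08 without wild-type replicate 2 (adjusted p = 0.07675). Knockdown CRISPLD2 was lowest at CT00, at 0.884 and 0.310 CPM in replicates 1 and 2, and highest at CT14 and CT18, at 2.53 and 3.44 CPM, the latter from 9 reads in a shallow library. Without the 2 shallow libraries the knockdown rise was 0.71 (limma adjusted p = 0.00589) and the difference 1.19 (adjusted p = 0.00206). Its knockdown rise was 0.45 without CT00 (limma adjusted p = 0.129) and 0.55 without knockdown replicate 2 (adjusted p = 0.0706).

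DUSP1 was level in wild-type total RNA, with a slope of -0.02 ± 0.10 (limma adjusted p = 0.872), and rose by 0.42 ± 0.10 in knockdown (adjusted p = 0.000966). The knockdown series had their highest values at CT16 and CT18, 114 and 115 CPM, against lowest values of 75.7 CPM at CT06 and 72.3 CPM at CT08. The difference of slopes was 0.44 ± 0.14 (adjusted p = 0.0234). It did not pass without wild-type replicate 1, knockdown replicate 1, knockdown replicate 2 or CT00 (limma adjusted p from 0.0547 to 0.158). SGK1 rose by 0.38 ± 0.12 in wild-type total RNA (limma adjusted p = 0.0114), from 32.5 to 49.4 CPM in replicate 1 and from 33.0 to 34.6 CPM in replicate 2. Its rise did not pass without wild-type replicate 1 (0.20, adjusted p = 0.4745). Its knockdown slope was -0.06 ± 0.12 (adjusted p = 0.754), and the difference of -0.44 ± 0.18 did not pass (adjusted p = 0.0659). Without wild-type replicate 2 the difference for SGK1 did pass.

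In footprints the difference of slopes passed for 2 members, where 8.43% of all genes passed. FKBP5 differed by -0.49 ± 0.14 (limma adjusted p = 0.0210), with slopes of 0.28 ± 0.10 in wild-type and -0.21 ± 0.10 in knockdown. The wild-type footprint rise of FKBP5 itself (limma adjusted p = 0.0351) did not pass without wild-type replicate 1, wild-type replicate 2, CT00 or the filter, with deposited scaling, or as late minus early times (adjusted p from 0.0571 to 0.254). CRISPLD2 differed by 1.70 ± 0.49 (adjusted p = 0.0174), with slopes of -0.45 ± 0.35 and 1.26 ± 0.35. For FKBP5 the call was lost without any 1 of wild-type replicate 1, wild-type replicate 2 and knockdown replicate 1 (limma adjusted p from 0.121 to 0.515). For CRISPLD2 it was lost without wild-type replicate 2 (1.01, limma adjusted p = 0.284) and without knockdown replicate 2 (1.26, adjusted p = 0.267). Knockdown footprints of DUSP1 rose by 0.43 ± 0.11 (limma adjusted p = 0.00249), which did not pass without knockdown replicate 1 (0.27, adjusted p = 0.353). The knockdown rise of CRISPLD2 in footprints did not pass without knockdown replicate 2 (0.81, limma adjusted p = 0.306).

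A 24-h cosine fitted 6 members in wild-type total RNA (FKBP5, TSC22D3, ZBTB16, KLF9, SGK1 and ERRFI1), where it passed for 19.4% of all genes. Fitted peaks lay between CT 15.4 for FKBP5 and CT 19.1 for ERRFI1, and the fitted peak was 1.202 times the trough for FKBP5, 1.41 times for KLF9 and 2.92 times for ZBTB16. In knockdown total RNA it passed for KLF9, DUSP1 and CRISPLD2, against 33.6% of all genes. In footprints it passed for ZBTB16, KLF9 and SGK1 in wild-type, against 10.1% of all genes, and for KLF9, DUSP1 and ERRFI1 in knockdown, against 12.8%. These counts fell to between 0 and 3 in wild-type when either wild-type series was left out, and to 1 in knockdown total RNA without knockdown replicate 2. Sampling covered 1 day, over which a steady rise also gives a fitted cosine with a late peak. With a linear drift in the model no member passed in any of the 4 cases by limma or by edgeR. At an unadjusted p under 0.05, FKBP5 alone did so in wild-type total RNA, DUSP1 and CRISPLD2 in knockdown total RNA, and none in footprints. Over all genes, the fit with drift called 20 and 813 of 14033 in wild-type and knockdown total RNA. In footprints it called 9 and 192 of 11995. With so few genes passing, 0 of 9 says little about the members. No member was shown to be rhythmic beyond its drift.

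The members did not share 1 time course. Over the 12 times of each treatment (24 points, replicate means of log2 CPM, centred within treatment), KLF9 and ZBTB16 were the most alike, with Pearson's r of 0.92. ZBTB16 and TSC22D3 followed with 0.84, KLF9 and TSC22D3 with 0.80, and SGK1 and ERRFI1 with 0.68. At the other end, CRISPLD2 ran against SGK1 (r = -0.51) and PDK4 (r = -0.43). FKBP5 was close to none of them, with its highest r at 0.55, to PDK4. Points share libraries and the rise through the day, so these values only describe the curves. The CT08 points of SGK1 and ERRFI1 include the knockdown replicate 1 that stood apart, and r without it was not computed. Among about 11983 genes with a mean log2 of at least 1, those most like KLF9 were CA11, PNRC1 and LOXL4 (r = 0.96 each), and those most like ZBTB16 were LBH, TMSB4X (r = 0.96 each) and PALM (r = 0.95). The closest to TSC22D3 was PRCP (0.90), to FKBP5 NR2C2 (0.75), to SGK1 ITGB1 (0.80), to DUSP1 THBS1 (0.86), to ERRFI1 INHBA (0.90), to CRISPLD2 GP6 (0.86) and to PDK4 TMC5 (0.82).

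The receptor's own gene and the rest of its pathway put these values in context. NR3C1, which encodes the glucocorticoid receptor, ran from 88.9 through a median of 96.4 to 107 CPM in wild-type total RNA and from 75.1 through 83.7 to 89.8 CPM in knockdown. The ranges barely overlapped, with 21 of 24 knockdown libraries under every wild-type library. Knockdown stood at 87.0% of wild-type in total RNA (log2 difference -0.20 ± 0.02, limma adjusted p = 2.19e-10) and at 83.3% in footprints (-0.26 ± 0.04, adjusted p = 6.08e-07). The slope of NR3C1 in total RNA was -0.09 in wild-type and 0.09 in knockdown, a difference of 0.18 ± 0.06 (limma adjusted p = 0.0362) that did not pass without any 1 of the 4 replicate series (adjusted p from 0.0559 to 0.292). Of 17 genes for the receptors, their chaperones, hormone-converting enzymes and cofactors, 15 were tested in total RNA, of which 3 were higher, 7 lower and 5 not called (median log2 difference -0.04), where 41.2% of all genes were higher and 39.3% lower. The share of the list that was called was below the 80.5% of all genes. The largest falls were those of NCOR1, a corepressor, at -0.57 ± 0.02, and of NR3C2, the mineralocorticoid receptor, at -0.54 ± 0.06. The largest rises were those of the heat shock chaperones DNAJB1, 0.44 ± 0.02, and HSPA8, 0.18 ± 0.02.

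Other genes known to be induced by glucocorticoids did not fall together. Of 27 listed, 23 were tested in total RNA. Of these, 12 were higher, 5 lower and 6 not called, where 41.2% of all genes tested were higher and 39.3% lower. The median log2 difference was 0.08 against 0.01 over all genes. In footprints 6 of 21 tested were higher and 8 lower (median -0.08), where 36.6% of all genes were higher and 37.8% lower. LCN2, 1 of the lower genes, passed the footprint filter only through the wild-type libraries. SCNN1A, a subunit of the epithelial sodium channel, fell most, from a wild-type range of 2.61 to 7.15 CPM to a knockdown range of 0.184 to 1.91 CPM in total RNA. The ranges did not overlap, and the log2 difference was -2.77 ± 0.11 (limma adjusted p = 1.03e-21). LCN2, an iron-carrier-binding protein of innate immunity, fell by 1.01 on the log2 scale. TNFAIP3, which encodes the NF-kB inhibitor A20, and GADD45A, a stress and growth arrest gene, rose by 1.65 ± 0.11 and 1.16 ± 0.06, and in both all 24 knockdown libraries were above every wild-type library.

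Genes that glucocorticoids are known to repress were higher in knockdown. Of 15 listed inflammatory and matrix genes, 11 were tested in total RNA. All 11 rose, with a median log2 difference of 1.86, where 41.2% of all genes tested were higher. In footprints 9 of 9 tested rose, with a median of 1.98, where 36.6% of all genes tested were higher. In total RNA 8 of the 11 would have passed the filter on wild-type libraries alone. IL6, MMP1 and CSF2 entered through the knockdown libraries, where they are higher, as IL8, IL1A and CSF2 did in footprints. Both medians include these genes. MMP3, which degrades matrix proteins, ran from 1.17 through a median of 3.25 to 9.57 CPM in wild-type total RNA and from 19.85 through 40.7 to 86.2 CPM in knockdown. IL1A, the cytokine interleukin 1 alpha, ran from 0.121 through 0.441 to 0.882 CPM and from 5.23 through 7.78 to 16.55 CPM. Neither gene's ranges overlapped. The log2 differences were 3.53 ± 0.11 for MMP3 and 3.65 ± 0.09 for IL1A (limma adjusted p = 3.20e-22 and 1.25e-26). Without the CT08 sample, 11 of 11 rose again, with a median of 1.81. Since siRNA, seeding density and loss of BMAL1 came together, their parts in these changes cannot be told apart.

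**Figure D5:**
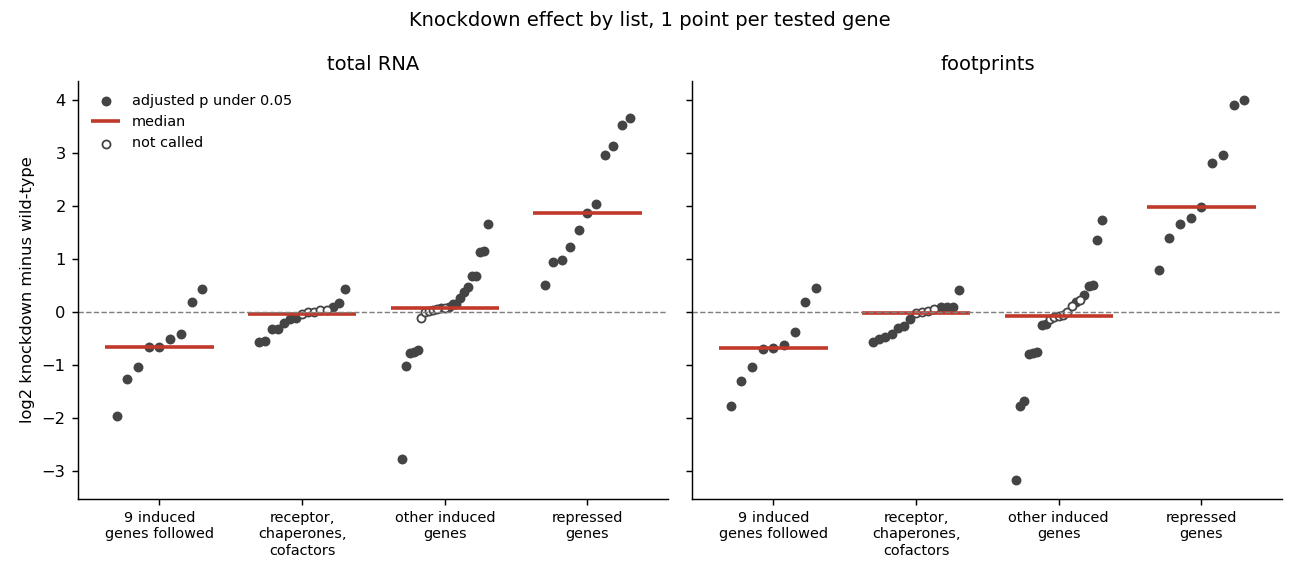
Log2 difference, knockdown minus wild-type (y axis), in total RNA (left) and footprints (right), with 1 point per tested gene of each list (x axis), filled where the adjusted p was under 0.05, and the list's median as a red line. The medians of the 9 genes lie at -0.66 and -0.68, those of the repressed genes at 1.86 and 1.98, and those of the other 2 lists near 0. Some genes passed the filter only through the treatment in which they were higher, and the medians include them.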

How the data were processed

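Total RNA and ribosome footprints were sequenced in 96 libraries, 2 for each treatment, assay and time. Per the submitters' processing notes, the tools were STAR 2.3.0e for alignment, HTSeq 0.5.4p1 for counting and DESeq2 (version not given), on the GRCh37 (hg19) build. The strand setting of the counting was not given in the sources used here, so overlapping and antisense genes are uncertain. The deposited tables hold a normalised signal, in which the authors had scaled each library's gene counts by a single factor. Every value, 100% of them, was a whole multiple of its library's step to within 0.001 read, which gave back the reads. Treatment, assay and replicate came from the table, and time from the column name.

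These reads were filtered with filterByExpr at a minimum count of 10 and scaled by TMM, each assay separately, in edgeR 4.0.16. Log2(CPM + 0.25) was fitted with limma-trend (limma 3.58.1, R 4.3.3, robust), with Benjamini-Hochberg adjustment over all genes tested and a threshold of 0.05. The pseudocount understates folds of low genes. The planned main test, edgeR's quasi-likelihood on counts, and DESeq2 1.42.0 became alternatives because the deposited values were normalised. The knockdown effect is the mean over 12 times, and trends are lines per 22 h. The knockdown and wild-type trend fits were run on simulated counts, drawn independently for each library with few genes changed. Such counts lack the deviations that libraries share here, so they do not check the error rate of these data. The members, the lists and the rule for naming genes (all members, NR3C1 and the 2 largest rises and falls of each list) were chosen with earlier results of these data known. Genes of the CT08 sample were named after their values were seen. Wild-type total RNA libraries of the same number deviated together (r from 0.438 to 0.780 over 66 pairs of times), as did wild-type footprints and total RNA (0.243 to 0.463), so there the numbers pair samples. They did not pair in knockdown total RNA (-0.26 to 0.65) or between treatments (-0.15 to 0.21 in total RNA). Between times, wild-type footprint libraries of the same number had a median r of 0.287 (-0.115 to 0.549).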

Additional observations from a re-analysis of the deposited data

Results flagged for a closer look

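The change through the day differed between treatments for 5 members in total RNA and 2 in footprints, by a test of the difference of slopes (knockdown minus wild-type, log2 per 22 h, limma adjusted p under 0.05). In total RNA the differences were -0.34 for FKBP5, -1.10 for ZBTB16, -1.37 for PDK4, 0.44 for DUSP1 and 1.39 for CRISPLD2. In footprints they were -0.49 for FKBP5 and 1.70 for CRISPLD2. Each of the 7 lost its call without at least 1 replicate series.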

How the results depend on the processing

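Of the members' results, DESeq2 kept all 18 calls it was run on, median-ratio scaling and a pseudocount of 1 kept 116 of 117, and edgeR, deposited scaling, no filter and the replicate block kept 113 of 117 each. Leaving out the CT08 sample, chosen after seeing the data, kept 80 of 81. Leaving out a series cost more: 65 and 64 of 81 kept without wild-type replicates 1 and 2, 72 and 68 without knockdown replicates 1 and 2. Sign changes where neither fit passed are not counted as reversed. The cause of these changes was not tested. Footprints hold few reads of ZBTB16, CRISPLD2 and PDK4, so small differences in those were not detectable at this depth.

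With the replicate block, 4 members differed in footprint slope (adding ZBTB16, adjusted p = 0.0365, and SGK1, 0.0362), and SGK1 in total RNA (0.0444). Deposited scaling called 1 member in efficiency, turned DNAJB1 efficiency to 0.08312, and moved the share of higher calls from 49.2% to 60.9% in knockdown footprints and from 51.7% to 39.9% in wild-type footprint trends. Series means called 393 genes in efficiency against 3530. Late minus early times called 3 members in wild-type footprints. Without CT00, 2 members differed in total RNA slope. With a drift, the cosine called 0 members in each of the 4 cases and 20, 813, 9 and 192 genes (wild-type and knockdown total RNA, wild-type and knockdown footprints) against 2720, 4717, 1207 and 1534.

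Leaving out 1 replicate series at a time gave these ranges. HSPA8 in footprints ran from -0.02115 to 0.2051. Efficiency called 1989 to 3611 genes. Wild-type total RNA trends called 4 to 5 members and 3294 to 3840 genes, knockdown ones 3174 to 3235 genes. The slope difference in total RNA called 2 to 3 members and 1612 to 2271 genes, and in footprints 0 to 1 members and 531 to 952 genes. Footprint trends called 2 to 4 members and 1670 to 2228 genes in wild-type, and 885 to 1653 genes in knockdown. The cosine called 1 to 3 members and 1084 to 1110 genes in wild-type total RNA, 1 to 4 members and 1778 to 3518 genes in knockdown total RNA, 0 to 1 members and 513 to 572 genes in wild-type footprints, and 1 member and 383 to 641 genes in knockdown footprints.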

Other observations

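The knockdown sample of replicate 1 at CT08 had far higher levels of several inflammatory genes than its replicate 2. IL8, a neutrophil-attracting chemokine, stood at 620 CPM in its total RNA against 5.82 CPM in replicate 2 and at most 22.2 CPM in the other 23 knockdown libraries. In footprints IL8 stood at 340.5 CPM against 1.87 CPM. CCL20, another chemokine, was at 67.0 against 5.39 CPM in total RNA and at 81.0 against 5.87 CPM in footprints. CSF2, the cytokine GM-CSF, was at 32.7 against 2.02 CPM in total RNA, and TNFAIP3, an NF-kB inhibitor, at 53.8 against 11.6 CPM. In total RNA, 25 of 12019 genes were more than 2 times above the knockdown median in this library, against 0 in replicate 2 at CT08, 199 and 247 in the 2 shallow libraries and at most 15 in the other knockdown libraries. In footprints it had 38 of 11439 such genes, as many as replicate 2 at CT20.

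Among the glucocorticoid-induced members, SGK1 (66.7 against 42.35 CPM) and ERRFI1 (122 against 71.2 CPM) were the highest of 24 knockdown libraries there in total RNA, and PDK4 (0.430 against 0.674 CPM) was the lowest. FKBP5 (77.2 against 70.5 CPM) and KLF9 (41.6 against 35.3 CPM) lay within the range of the others. Footprints repeated this for SGK1 (93.0 against 59.0 CPM) and ERRFI1 (68.0 against 44.8 CPM). These genes were named after their values were seen, and the cause of these levels was not tested.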
